A study of Mus musculus with 12 samples.

Results

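The genes described here are 10 markers and peptide genes of cortical inhibitory interneurons: Pvalb, Sst, Vip, Npy, Cck, Cort, Tac1, Crh, Calb2 and Reln. They were chosen by name, with earlier results of these data known. All 10 were found at each time point among 39430 gene names shared by the 3 deposited tables. RNA was sequenced from the prefrontal cortex of male C57BL/6 mice (C57BL/6 J in the study's methods) aged 10 weeks. The mice had received repeated injections of saline (the control groups) or of cocaine, and tissue was taken 2 h, 24 h or 7 d after the final dose. Each of the 6 groups had 2 libraries, each library pooled the tissue of 5 mice, and 60 mice were used in all, as 12 samples are listed, although the protocol text of the labels speaks of 6 libraries. The labels name no transgene or deletion. The bilateral tissue block at the front of the brain held all cell types of the region, so that a fall in the number of cells of one type and a fall in RNA per cell cannot be told apart.

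The expression unit was FPKM, the number of sequenced fragments scaled to the length of the transcript and to the mapped fragments of a library. The authors deposited 1 FPKM per group and time point, pooled over the 2 libraries, so no spread between replicates could be computed from these values. The test columns of the authors' own comparison were set aside, and no test is given below. Each comparison is therefore the ratio of 1 cocaine value to 1 saline value, given as log2(cocaine / saline) after 0.1 FPKM was added to both. A gene was counted as past the fold when this ratio reached 1.2-fold, and the same count over all genes whose mean FPKM reached 1 (13361 at 2 h, 13583 at 24 h and 13430 at 7 d) is given as the background. The 3 tables were scaled separately, and for several genes the locus had other ends in the 7 d table, so levels set side by side across time points are descriptions. The depth behind each FPKM is unknown from the tables.

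Inhibitory interneurons make GABA, and their main cortical classes are told apart by the proteins and peptides that they also make. Parvalbumin (Pvalb) is a calcium-binding protein of fast-spiking basket and chandelier cells, and somatostatin (Sst) is the peptide of cells that contact dendrites. Vasoactive intestinal peptide (Vip) marks cells that mainly inhibit other interneurons, and calretinin (Calb2) and corticotropin-releasing hormone (Crh) are found in part of them. Neuropeptide Y (Npy), cholecystokinin (Cck), cortistatin (Cort, a relative of somatostatin) and the substance P precursor (Tac1) are made by further or overlapping sets of interneurons, and Cck also by pyramidal cells. Reelin (Reln) is a large secreted glycoprotein of layer 1 and of other interneurons. Several of these peptide genes respond to cyclic AMP through the factor CREB, for which the Sst promoter is the classic example.

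The stretch just before the start site is shown for the 5 genes whose promoter window held the CREB core motif TGACG. Sst, the gene of the textbook site, is among them. A relation of the motif to the ratios was not tested. Sequences are from RefSeq on GRCm38.p6, read 5′ to 3′ on the strand of the gene, and cover the 120 bases that end just before the start. Capitals mark TGACG, or CGTCA where it lies on the other strand.
Sst: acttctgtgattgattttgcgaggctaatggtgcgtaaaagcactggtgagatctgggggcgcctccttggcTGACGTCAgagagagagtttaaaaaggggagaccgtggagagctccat
Vip: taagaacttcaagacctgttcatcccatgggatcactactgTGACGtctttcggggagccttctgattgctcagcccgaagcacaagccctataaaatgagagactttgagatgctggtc
Cck: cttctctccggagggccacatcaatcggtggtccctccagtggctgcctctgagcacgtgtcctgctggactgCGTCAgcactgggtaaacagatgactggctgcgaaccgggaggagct
Cort: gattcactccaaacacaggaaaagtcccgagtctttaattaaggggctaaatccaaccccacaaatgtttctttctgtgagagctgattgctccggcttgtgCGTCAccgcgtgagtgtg
Tac1: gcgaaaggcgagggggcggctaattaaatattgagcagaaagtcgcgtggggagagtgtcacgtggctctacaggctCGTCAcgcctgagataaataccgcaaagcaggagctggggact
The stretches lie at chr16:23890845-23890964 (minus strand), chr10:5639098-5639217 (plus), chr9:121495695-121495814 (minus), chr4:149126764-149126883 (minus) and chr6:7554941-7555060 (plus). Promoter windows of 300 bases, from 250 before to 50 after the start, were matched for 8 of the 10 genes, and not for Crh and Calb2. The full palindrome TGACGTCA, in which TGACG on both strands overlaps, was found in 1.79% of 32851 such windows in the mouse table and, among the 8 genes, in Sst alone, starting at position -48. The core TGACG on either strand was found in 20.8% of all windows. It was found in 5 of the 8 genes, starting at -79 in Vip, -47 in Cck, -18 in Cort and at -197 and -43 in Tac1. It was not found in the windows of Pvalb, Npy and Reln. These are matches of letters and not measured binding sites.

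The levels spanned a wide range, and their order was set by the peptides with the most transcript. FPKM is scaled to transcript length, so levels of different genes can be compared roughly. A shift with transcript length remained between groups, as given below, and the Reln row was a failed estimate at 2 h and 24 h. Cck was the most abundant, with a mean over the 6 groups of 793 FPKM and a range of 722 to 821 FPKM. Sst followed with a mean of 254 FPKM (218 to 294 FPKM) and Npy with 221 FPKM (202 to 234 FPKM), and the ranges of these 2 overlapped. Vip (45.7 FPKM, from 43.4 to 49.3 FPKM) and Pvalb (40.5 FPKM, from 36.9 to 47.1 FPKM) formed the next pair, and their ranges overlapped too. Below them came Reln at a mean of 14.3 FPKM, Tac1 at 10.5 FPKM, Cort at 9.04 FPKM, Calb2 at 7.43 FPKM and Crh at 5.60 FPKM. Neighbours in this lower part of the order overlapped in their ranges, except Cort and Calb2. The order of the upper 3 steps (Cck, then Sst and Npy, then Vip and Pvalb) was larger than any difference between saline and cocaine.

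**Figure D1:**
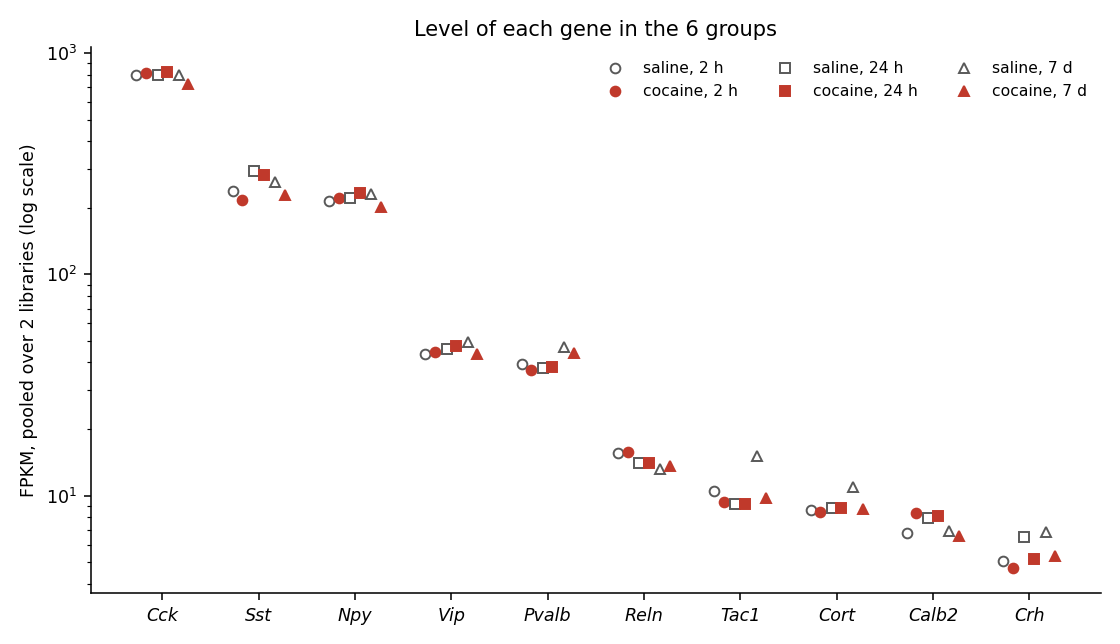
Pooled FPKM (log scale) of the 10 genes in the 6 groups, 1 point per group, with open grey symbols for saline, filled red symbols for cocaine and the symbol shape for the time point. The saline value of Tac1 at 7 d, 15.1 FPKM, stands above the other 5 values of that gene, which lie between 9.14 and 10.5 FPKM.

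The question at each time point was whether repeated cocaine left these genes at another level than saline. At 2 h the answer over the 10 genes was a spread on both sides of 0. The ratio was above 0 for 5 genes and below 0 for 5, and the median log2 ratio was -0.01, beside 0.02 over all genes. Past the fold, 1 of 10 genes was higher in cocaine, against 10.5% of all genes, and 0 of 10 were lower, against 7.15%. The 1 gene was Calb2, at 6.80 FPKM in saline and 8.32 FPKM in cocaine, a log2 ratio of 0.29. Of all genes, 15.1% had a ratio at least as far from 0. The next largest differences were those of Tac1 (10.5 FPKM in saline and 9.31 FPKM in cocaine, log2 ratio -0.17) and of Sst (238 and 218 FPKM, -0.13).

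At 24 h the genes were closer to saline than at the other times. The median distance of the 10 log2 ratios from 0 was 0.03, beside 0.09 over all genes, while at 2 h it had been 0.07 beside 0.11. Past the fold, 0 of 10 genes were higher, against 6.12% of all genes, and 1 of 10 was lower, against 5.51%. The 1 gene was Crh, at 6.51 FPKM in saline and 5.15 FPKM in cocaine, a log2 ratio of -0.33. The other 9 ratios lay between -0.06 (Sst, 294 FPKM in saline and 282 FPKM in cocaine) and 0.08 (Npy, 221 and 234 FPKM). Tac1 was at 9.14 FPKM in both groups, and Cort at 8.77 FPKM in saline and 8.79 FPKM in cocaine.

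At 7 d the balance of the genes lay on the lower side. The cocaine value was below saline for 9 of the 10 genes, while 52.3% of all genes were lower. The median log2 ratio was -0.19, beside -0.01 over all genes. Past the fold, 3 of 10 genes were lower, against 11.8% of all genes, and 0 of 10 were higher, against 8.12%. The 3 were the peptide genes Tac1, Crh and Cort. Tac1 was at 15.1 FPKM in saline and 9.79 FPKM in cocaine, a ratio of 0.649 and a log2 ratio of -0.62, and 1.94% of all genes had a ratio as low or lower. Crh was at 6.87 FPKM in saline and 5.33 FPKM in cocaine (log2 ratio -0.36), and Cort at 10.9 and 8.68 FPKM (-0.33). Reln alone was above saline, at 13.2 FPKM in saline and 13.6 FPKM in cocaine (0.05).

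**Figure D2:**
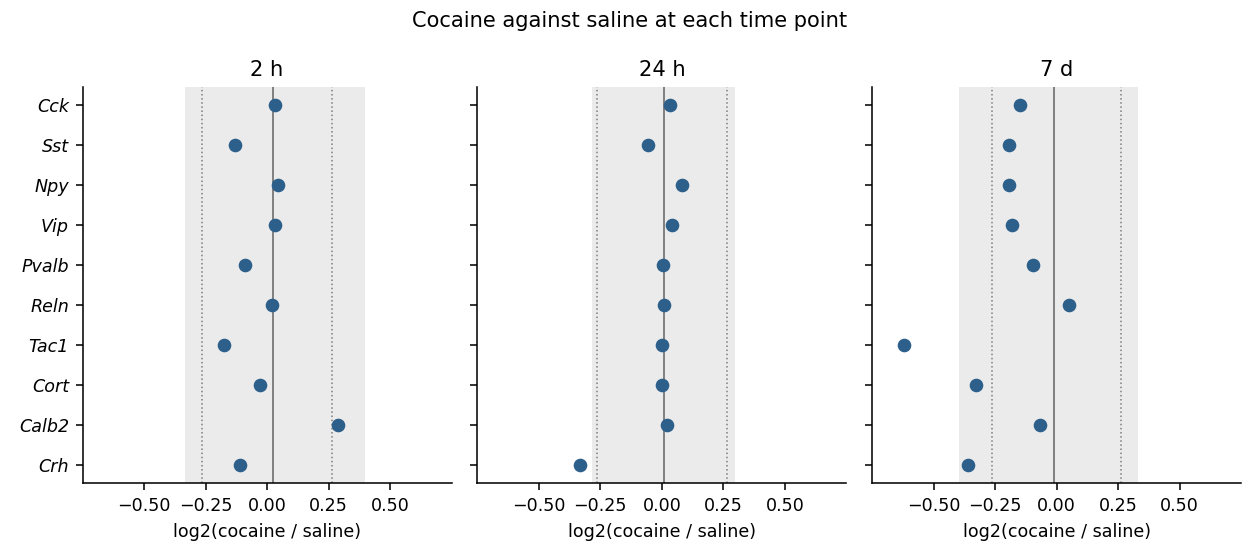
log2(cocaine / saline) of each gene at 2 h, 24 h and 7 d. The solid line is the median of all genes whose mean FPKM reached 1, the shading runs from the 5th to the 95th percentile of those genes, and the dotted lines mark 1.2-fold. Tac1 at 7 d (-0.62) and Crh at 24 h (-0.33) lie outside the shading.

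The abundant genes differed by less at 7 d. Sst was at 262 FPKM in saline and 229 FPKM in cocaine (log2 ratio -0.19). Npy was at 231 and 202 FPKM (-0.19), and Cck at 801 and 722 FPKM (-0.15). Both Npy and Cck had been slightly above saline at the earlier times, with log2 ratios of 0.05 and 0.03 at 2 h and of 0.08 and 0.04 at 24 h. Vip followed the same course, at 43.4 FPKM in saline and 44.4 FPKM in cocaine at 2 h, 46.1 and 47.5 FPKM at 24 h, and 49.3 and 43.5 FPKM at 7 d (-0.18). For Pvalb the values were 39.2 and 36.9 FPKM at 2 h, 37.8 and 38.0 FPKM at 24 h, and 47.1 and 44.1 FPKM at 7 d. Here the step between the 24 h and the 7 d table was larger than any difference from cocaine.

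Calb2 and Reln, the markers that are not peptides beside Pvalb, had no common course. The higher value of Calb2 in cocaine at 2 h was followed by 7.94 FPKM in saline and 8.06 FPKM in cocaine at 24 h, and by 6.89 and 6.57 FPKM at 7 d. Reln was at 15.5 FPKM in saline and 15.7 FPKM in cocaine at 2 h, and at 14.0 and 14.0 FPKM at 24 h. Its log2 ratio stayed between 0.01 and 0.05. The deposited tables mark the Reln row as a failed estimate at 2 h and 24 h, so its FPKM at those times is uncertain.

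The direction was the same at all 3 time points for 3 of the 10 genes. Crh (log2 ratios -0.11, -0.33 and -0.36) and Sst (-0.13, -0.06 and -0.19) were lower in cocaine each time, which 14.4% of all genes also were. Reln was higher each time, as were 19.0% of all genes. For Crh the 3 saline values, 5.06, 6.51 and 6.87 FPKM, and the 3 cocaine values, 4.68, 5.15 and 5.33 FPKM, overlapped.

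The 3 saline groups offer the only view of how far a pooled value moves without cocaine, and each of them was also scaled in another table. Over 12852 genes the highest saline value was 1.16 times the lowest in the median gene. For Cck it was 1.004 times, with 798, 801 and 801 FPKM, and for Npy 1.07 times. For Tac1 it was 1.65 times and for Crh 1.36 times, which is wider than in the median gene. At 2 h the cocaine value lay below all 3 saline values for 4 of 10 genes (Pvalb, Sst, Cort and Crh), against 24.9% of all genes, and above them for 3 (Cck, Calb2 and Reln), against 30.4%. At 24 h it lay below for 0 genes, against 18.0%, and above for 3 (Npy, Cck and Calb2), against 29.0%. At 7 d it lay below for 4 (Sst, Npy, Cck and Calb2), against 25.1%, and above for 0, against 13.5%.

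None of the 3 genes past the fold at 7 d was among those 4. For Tac1, Cort and Crh the cocaine value at 7 d lay inside the range of the saline values. The 3 cocaine values of Tac1 ran from 9.14 to 9.79 FPKM and its saline values from 9.14 to 15.1 FPKM. For Cort the cocaine values ran from 8.45 to 8.79 FPKM and the saline values from 8.63 to 10.9 FPKM. In both genes the saline value at 7 d was the one that stood apart. For Cck, which was not past the fold, the 722 FPKM of the cocaine group at 7 d lay below saline values that differed by little.

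The ratio at 7 d also moved with transcript length. The transcript length used was that of the longest protein-coding transcript of a gene, which was found for 82.2% of the genes at 7 d. Among the 11039 genes with a length, the median log2 ratio ran from -0.24 in the shortest of 20 groups to 0.14 in the longest, and Spearman's rho between length and ratio was 0.48. This correlation is across genes of the same libraries and is given as a description. At 2 h rho was 0.16 and at 24 h 0.08. Of the 10 genes, 9 had a transcript shorter than the median gene of 3062 nt, from 566 nt in Npy to 1527 nt in Vip, and Reln, the gene above saline, had 11702 nt. Compared with the 2 h table, the saline group at 7 d was higher by a median log2 difference of 0.24 in the shortest group of genes and lower by -0.19 in the longest. In the cocaine groups these differences were -0.01 and -0.12.

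With the median of the genes of like length subtracted, 5 of the 9 genes below saline at 7 d came to lie above 0. The median log2 ratio of the 10 became -0.01, with 5 genes above and 5 below 0. Tac1 stayed past the fold at -0.44, while 5.31% of the genes with a length were lower past the fold. Crh was at -0.24 and Cort at -0.09, short of the fold. Sst (0.04), Npy (0.04), Cck (0.09), Pvalb (0.08) and Calb2 (0.05) were above 0, and Vip (-0.07) and Reln (-0.09) below. At the earlier times Calb2 at 2 h (0.30) and Crh at 24 h (-0.33) stayed past the fold. Of the genes with a length, 7.62% were higher past it at 2 h and 4.29% lower at 24 h. Of all calls past the fold at 7 d, 40.7% were higher in cocaine before the subtraction and 53.3% after it. The first share is over 13430 genes and the second over the 11039 with a length. The cause of the length trend was not tested.

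**Figure D3:**
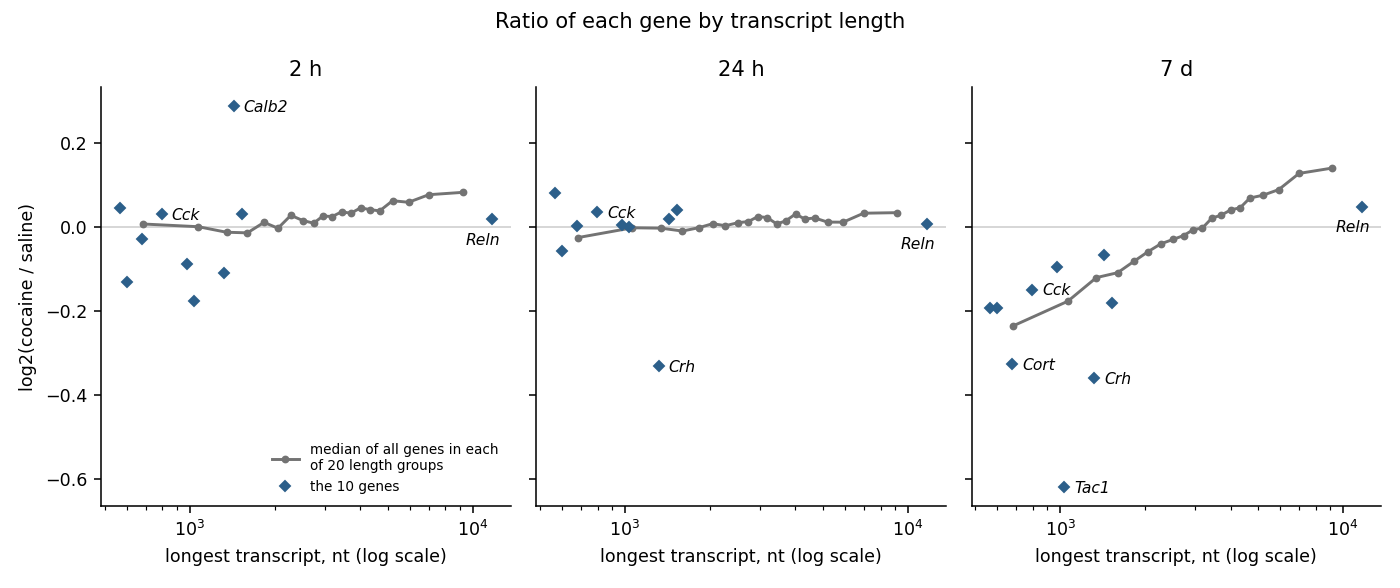
log2(cocaine / saline) against the length of the longest protein-coding transcript (log scale) at each time point. Diamonds are the 10 genes, and the grey line joins the medians of all genes in 20 length groups, which rise from -0.24 to 0.14 at 7 d. At 7 d Tac1 lies well below the line, while Cck lies above it.

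Gad1, Gad2 and Slc32a1, which mark inhibitory neurons as a whole, stayed close to saline. Gad1 and Gad2 make GABA and Slc32a1 loads it into vesicles. Gad1 had log2 ratios of 0.04, 0.03 and 0.06 at 2 h, 24 h and 7 d, with 75.1 FPKM in saline and 78.1 FPKM in cocaine at 7 d. Those of Gad2 were -0.03, -0.01 and 0.06. Those of Slc32a1 were 0.05 at 2 h and 0.03 at 24 h, with 21.8 FPKM in saline and 21.7 FPKM in cocaine at 7 d. The list of GABAergic identity genes and interneuron transcription factors held 19 measured genes at 2 h and 24 h and 18 at 7 d. At 2 h 3 were higher past the fold (against 10.5% of all genes) and 0 lower (7.15%). At 24 h 0 were higher (6.12%) and 0 lower (5.51%), and at 7 d 3 were higher (8.12%) and 1 lower (11.8%). Medians of the log2 ratios were 0.04, 0.01 and 0.02. Nr2f2, a transcription factor of interneurons from the caudal ganglionic eminence, had the largest ratio of the list, a log2 ratio of 0.46 at 2 h, followed by -0.14 at 24 h and by 0.38 at 7 d (1.95 FPKM in saline and 2.56 FPKM in cocaine). Dlx6, of the Dlx family that specifies GABAergic neurons, was at 2.93 FPKM in saline and 2.31 FPKM in cocaine at 7 d (-0.33).

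Receptors for the peptides and for reelin formed a list of 21 genes, of which 13 reached a mean FPKM of 1. At 2 h 1 was higher (against 10.5% of all genes) and 1 lower (7.15%) past the fold. At 24 h 2 were higher (6.12%) and 0 lower (5.51%), and at 7 d none was past it in either direction (8.12% and 11.8%). The median log2 ratios were 0.05, 0.06 and 0.02. Vipr1, a receptor for Vip, was above saline each time, as were 19.0% of all genes. It was at 3.61 FPKM in saline and 4.53 FPKM in cocaine at 2 h (0.32). At 24 h the values were 3.17 and 4.22 FPKM (0.40), and at 7 d 2.85 and 3.33 FPKM (0.22). Cckbr, the main brain receptor for cholecystokinin, was at 21.2 FPKM in saline and 26.1 FPKM in cocaine at 24 h (0.30), but had a log2 ratio of -0.13 at 7 d. Npy1r, a receptor for neuropeptide Y, was at 10.2 FPKM in saline and 8.04 FPKM in cocaine at 2 h (-0.34), with log2 ratios of 0.05 at 24 h and -0.07 at 7 d.

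Among other neuropeptide genes more were lower than higher past the fold at 7 d. Of 17 measured genes outside the 10, 0 were higher, 6 were lower (against 11.8% of all genes) and 11 were not past the fold at 7 d, with 4 ratios above 0, and the median log2 ratio was -0.19. The rows of Nmb, Npff and, at 7 d, Oxt join them with neighbouring genes, and their values are not those of the peptide genes alone. Without those 3 rows, 5 of 14 genes were lower and 0 higher past the fold, and the median log2 ratio was -0.14. Set against genes of like length, the median was -0.03. At 2 h 3 were higher (against 10.5% of all genes) and 5 lower (7.15%). At 24 h 2 were higher (6.12%) and 2 lower (5.51%), the lower ones being Grp and the joined row of Npff. The largest ratio of the list was that of Avp, vasopressin, at 24 h, with 0.141 FPKM in saline and 3.23 FPKM in cocaine (3.79), while Oxt, oxytocin, was at 0.289 and 1.38 FPKM there. Both are hormones of the hypothalamus, and Avp was at 1.21 FPKM in saline and 1.90 FPKM in cocaine at 2 h and at 0.736 and 0.507 FPKM at 7 d. Grp, gastrin-releasing peptide, was below saline each time, as were 14.4% of all genes. It was at 5.04 FPKM in saline and 4.19 FPKM in cocaine at 2 h (-0.26). At 24 h the values were 4.95 and 3.74 FPKM (-0.40), and at 7 d 6.49 and 4.38 FPKM (-0.56). Less the median of its length group, the ratio of Grp at 7 d was -0.38. Pomc, the precursor of melanocortins and beta-endorphin, was low, at 1.66 FPKM in saline and 1.01 FPKM in cocaine at 7 d (-0.66). Nppc, the precursor of C-type natriuretic peptide, changed direction, with log2 ratios of -0.78, 0.48 and -0.52.

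**Figure D4:**
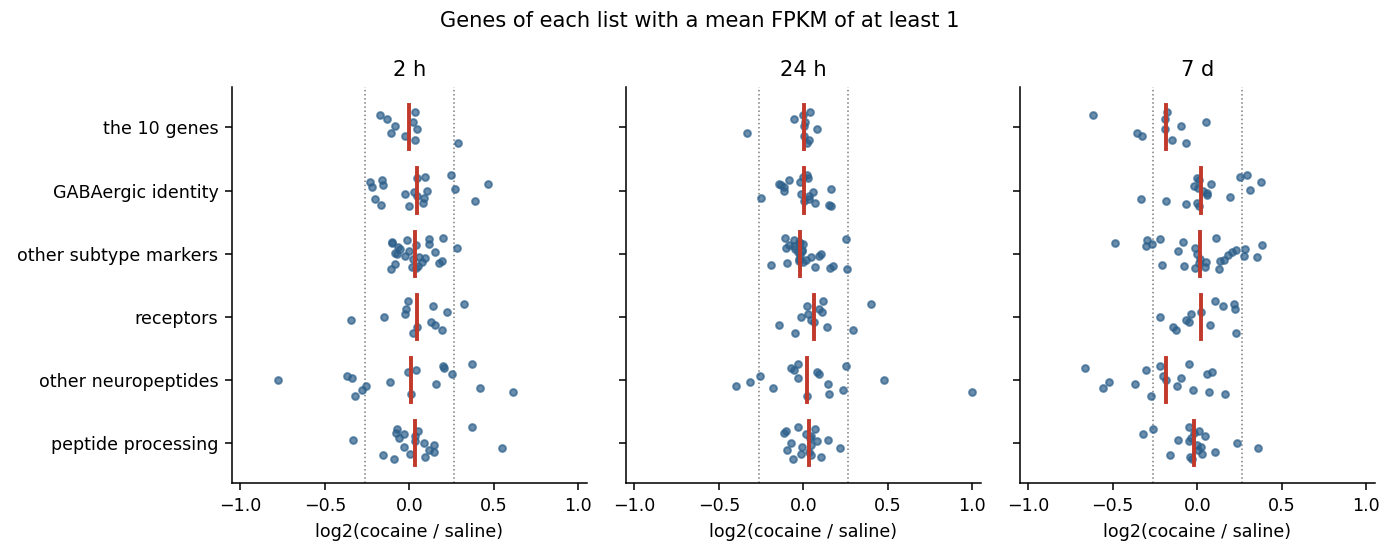
log2(cocaine / saline) of the genes of 6 lists whose mean FPKM reached 1, 1 point per gene, with red bars for the medians and dotted lines at 1.2-fold. At 7 d the median is -0.19 for both the 10 genes and the other neuropeptides and near 0 for the other lists, rows that join several genes included. At 24 h the point of Avp (3.79) lies beyond the axis and is drawn at its edge.

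The genes with a course most like those of Tac1, Crh and Sst, the 3 members with the widest range over the 6 groups, were sought among 12479 genes by the root mean square difference of centred log2 values over the 6 groups. For Tac1 they were 2310039H08Rik (0.07), Sec61g (0.07) and 2010107E04Rik (0.07), beside a median of 0.28 over all genes. All of them had their highest value in saline at 7 d, such as 45.3 FPKM in Sec61g beside 28.3 to 32.1 FPKM in its other 5 groups. For Crh they were Blnk (0.05), Cd55 (0.05) and Gm14393 (0.05), beside a median of 0.22. For Sst they were Mroh1, H2afj and Tmem234, each at 0.04, beside a median of 0.18. All of these genes were picked as the closest, so short distances and shared peaks follow from the choice.

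The tissue expressed the marker of cortical excitatory neurons Slc17a7 at 466 to 532 FPKM. Striatal markers are of interest because Tac1, Npy and Sst are also made in striatum. Drd1a lay between 0.648 and 0.925 FPKM and Drd2 between 0.146 and 0.234 FPKM in all groups. Of the 8 striatal markers whose mean FPKM reached 1, 1 was higher (8.12% of all genes) and 1 lower (11.8%) past the fold at 7 d. Without Foxp1, whose row joins other genes, the summed level of the striatal markers found was 142 FPKM in saline and 150 FPKM in cocaine at 7 d, and 145 to 167 FPKM in the other 4 groups. Of the olfactory bulb markers Eomes was at most 0.03 FPKM and Tbx21 at most 0.158 FPKM, while Pcdh20 was at 4.57 FPKM in saline and 3.28 FPKM in cocaine at 2 h (log2 ratio -0.47). The sum over those found in rows of their own ran from 18.0 to 20.9 FPKM, of which Kctd12 made up 12.2 to 13.9 FPKM. Vascular markers were higher in cocaine at 7 d for 8 of 8, 4 of them past the fold (8.12% of all genes). Their sum was 129 FPKM in saline and 142 FPKM in cocaine. At 2 h the sums were 126 and 136 FPKM, and at 24 h 154 and 148 FPKM. Astrocyte markers were higher at 7 d for 7 of 8, 3 of them past the fold (8.12% of all genes), with sums of 1164 and 1292 FPKM. Of all genes, 43.4% were lower in cocaine at 2 h, 46.8% at 24 h and 52.3% at 7 d. Without Aldoc, whose row joined another gene at the earlier times, 7 of 7 astrocyte markers were lower at 24 h, with 743 and 666 FPKM. At 2 h 7 of 7 were higher, with 650 and 721 FPKM. Of these 7, 2 were lower past the fold at 24 h (5.51% of all genes) and 0 were higher past it at 2 h (10.5%). The part of these cell types in the results was not tested.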

How the data were processed

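Poly-A RNA of 12 pooled prefrontal cortex samples was sequenced. According to the submitters' processing notes the tools were CASAVA 1.8.2, Trimmomatic 0.32, TopHat2 2.0.12, Cufflinks 2.2.1 and Cuffdiff, with GRCm38; the methods name cutadapt and mm9. Locus positions in the files matched GRCm38. The authors deposited 1 Cuffdiff table per time point, with an FPKM per group. The fold change, test statistic, p and q columns, which hold the authors' own comparison, were not used. In the tables the first group carries a C before its time and the second the time alone, whereas the labels use C for cocaine. The first group was taken as saline and the second as cocaine, after the labelled values of the study's supplementary tables. The kit does not mark strand, so antisense reads cannot be told apart.

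Ratios were log2 of cocaine over saline with a pseudocount of 0.1 FPKM, which understates changes of low genes, for names with a mean FPKM of at least 1. Where a name stood on several loci, the one with the highest mean was used. Cck stood on 3 loci with the same ends at 24 h. Since each group has 1 pooled value, no test was run. Transcript lengths were from GENCODE, and their trend was the median ratio in 20 groups of genes. The trend and fold steps were tested on simulated data. Python 3.11.15 with pandas 2.3.3, numpy 2.4.6, scipy 1.17.1 and matplotlib 3.10.9 was used.

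The 10 genes and the lists were chosen with earlier results of these data known. The genes named beside them were Gad1, Gad2, Slc32a1 and at most 4 of each list with the largest ratio at any time point. Those had a mean FPKM of at least 1 in all tables. For the 3 members with the widest range, the 3 genes of most similar course were named too. Drd1a, Drd2, Eomes, Tbx21, Slc17a7, Avp, Oxt, Npff, Foxp1 and Aldoc were named after their values were seen, as was the comparison with the range of the saline values. Lists covered GABAergic identity, further interneuron markers, receptors, other neuropeptides, peptide processing and markers of striatal, olfactory bulb and excitatory neurons, oligodendrocytes, astrocytes, microglia and vascular cells; a listed microglial marker is not reported here. Some genes, such as Pnoc and Vgf, stood in more than 1 list and were counted in each. Leaving out rows that join several genes was added after seeing the data. Other alternatives were another pseudocount, minimum, locus choice, centring, the length trend and 1.5-fold.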

Additional observations from a re-analysis of the deposited data

How the results depend on the processing

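No paired analysis was possible because the deposited tables hold 1 pooled value per group, and for the same reason no replicate could be left out. For the 10 genes, 1, 1 and 3 were past the fold at 2 h, 24 h and 7 d. This count became 0 at 2 h with a pseudocount of 1 FPKM. With a mean FPKM of at least 10, which 6, 6 and 7 of the 10 genes reached, it was 0, 0 and 1, since fewer genes were left. With 1.5-fold in place of 1.2-fold it was 0, 0 and 1. Less the median of genes of like length it was 1, 1 and 1, and the median log2 ratio at 7 d was -0.014 in place of -0.19. Tac1 was the gene past the fold at 7 d under the last 3 of these. The other counts and medians stayed within 1.5 times or 0.1 on the log2 scale, and no ratio past the fold changed sign under the alternatives run. Of the 30 ratios of the 10 genes, 10 moved by more than 0.1, all at 7 d and with the length trend taken out.

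Over all genes 2359, 1579 and 2679 were past the fold at 2 h, 24 h and 7 d. With a minimum of 10 FPKM they were 481, 320 and 945, without a minimum 5399, 4586 and 5749, and with 1.5-fold 539, 437 and 471. Without the length trend they were 1542, 938 and 1256, among the 11063, 11153 and 11039 genes with a length. With a pseudocount of 1 FPKM, 1016 were past it at 24 h. Of the calls at 2 h 59.5% were higher in cocaine, and 70.9% with the minimum of 10 FPKM, where at 7 d 23.8% were. The tables give no depth, and no counting error was computed.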

Other observations

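Among 27 measured further markers of interneuron subtypes at 7 d, 4 were higher (8.12% of all genes) and 4 lower (11.8%) past the fold. Their median log2 ratio was 0.02. At 2 h 1 of 26 was higher (10.5% of all genes), and at 24 h none was past the fold in either direction (6.12% and 5.51%). Htr3a, the serotonin receptor channel of Vip and reelin cells, was at 3.30 FPKM in saline and 4.25 FPKM in cocaine at 7 d (log2 ratio 0.36). Pthlh, parathyroid hormone-like peptide, was at 1.26 and 1.68 FPKM (0.38). Sncg, gamma-synuclein, which marks a set of Cck cells, was at 2.74 FPKM in saline and 1.93 FPKM in cocaine (-0.49). Pnoc, the precursor of nociceptin, was at 4.05 and 3.27 FPKM (-0.30). Pnoc was also counted among the other neuropeptide genes that were lower past the fold at 7 d.

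Of 19 genes for peptide processing and dense core vesicles, 2 were higher and 1 lower past the fold at 2 h. None was past it at 24 h, and 1 was higher and 1 lower at 7 d. The shares of all genes were 10.5% higher and 7.15% lower at 2 h, and 8.12% and 11.8% at 7 d. Furin, a protease that cleaves precursor proteins, was above saline each time, as were 19.0% of all genes. It was at 5.04 FPKM in saline and 7.41 FPKM in cocaine at 2 h (0.55). At 24 h the values were 5.55 and 6.47 FPKM (0.22), and at 7 d 4.04 and 5.21 FPKM (0.36). Vgf, a granule protein that neurons cut into peptides, was at 81.5 FPKM in saline and 105 FPKM in cocaine at 2 h (0.37), with log2 ratios of -0.03 at 24 h and -0.05 at 7 d.

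Excitatory markers had median log2 ratios of 0.03, 0.10 and 0.05 at 2 h, 24 h and 7 d. Oligodendrocyte markers were below saline at 24 h for 10 of 10 (46.8% of all genes), 2 of them past the fold (5.51% of all genes). Their medians were -0.05, -0.21 and 0.02. The 7 microglial markers used had medians of 0.04, -0.12 and -0.06, with 1 higher past the fold at 2 h (10.5% of all genes).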
